A study of Mus musculus with 9 samples.

Results

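Kit, Kitl, Ednrb, Erbb3, Met and Mc1r encode surface receptors through which the skin addresses its melanocytes, together with the ligand of the first of them. They were taken by gene symbol, and all 6 were found among the 16299 genes of the table. The melanocytes had been sorted by flow cytometry from mouse epidermis, with 3 libraries in each of 3 groups. Knockout back melanocytes came from back epidermis of Spry1flox/flox k14-Cre-ERT2 mice and knockout tail melanocytes from tail epidermis of mice of that genotype, while control tail melanocytes came from tail epidermis of Spry1flox/flox mice. All 3 groups thus carry the floxed Spry1 alleles, and the knockout groups also carry k14-Cre-ERT2, a tamoxifen-dependent Cre driven by the promoter of keratin 14, a gene that basal keratinocytes express and melanocytes normally do not. Age, sex and any tamoxifen dose were not given in the sources used here, and no control back group was analysed here. The labels do not say whether replicates came from separate animals, so the p-values speak of the spread among the libraries, which may be technical. Body site and genotype cannot be told apart in knockout back against control tail.

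The KIT receptor is a tyrosine kinase that melanocyte precursors need to migrate and survive, and its ligand, stem cell factor, is encoded by Kitl and made mainly by keratinocytes, fibroblasts and endothelial cells. EDNRB is the G-protein-coupled receptor for endothelins, ERBB3 a neuregulin receptor with little kinase activity of its own that signals as a dimer with ERBB2, and MET the tyrosine kinase receptor for hepatocyte growth factor. MC1R is the melanocortin receptor that raises cyclic AMP and turns pigment synthesis towards dark eumelanin. Sprouty proteins such as SPRY1 restrain signalling from receptor tyrosine kinases to ERK.

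The promoters of Kit and Met are shown because these were the members whose levels passed the test in knockout back against control tail. That of Mc1r is shown as an example of the other direction, with a log2 difference of -1.08. Kitl (-1.59) and Erbb3 (-1.39) also lay in that direction, and no window is printed for them. Each is the 250 bases before the RefSeq start on GRCm38.p6, all on the plus strand, in lower case. Capitals mark matches to the E-box letters CATGTG and CACGTG, forms to which the melanocyte factor MITF can bind, and to the AP-1 letters TGACTCA, on either strand. The Kit window is chr5:75574737-75574986, the Met window chr6:17463707-17463956 and the Mc1r window chr8:123406832-123407081.
Kit: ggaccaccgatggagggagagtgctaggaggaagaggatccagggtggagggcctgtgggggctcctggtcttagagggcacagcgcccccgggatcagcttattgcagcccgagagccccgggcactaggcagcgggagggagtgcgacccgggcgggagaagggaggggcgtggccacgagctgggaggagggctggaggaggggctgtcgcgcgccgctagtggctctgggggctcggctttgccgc
Met: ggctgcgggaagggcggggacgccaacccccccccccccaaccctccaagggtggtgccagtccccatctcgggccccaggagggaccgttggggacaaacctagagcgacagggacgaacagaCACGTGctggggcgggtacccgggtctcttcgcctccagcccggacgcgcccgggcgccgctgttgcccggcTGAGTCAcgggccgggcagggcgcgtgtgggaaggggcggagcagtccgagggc
Mc1r: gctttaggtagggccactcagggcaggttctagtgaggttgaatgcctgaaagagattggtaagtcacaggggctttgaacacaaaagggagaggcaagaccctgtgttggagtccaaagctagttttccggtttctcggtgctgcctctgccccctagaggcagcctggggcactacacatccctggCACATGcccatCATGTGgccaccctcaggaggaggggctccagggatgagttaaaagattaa

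The Mc1r window held 2 matches to CATGTG, starting 62 and 51 bases before the start, against a match in 12.3% of the 32851 mouse windows of the same length. The Met window held 1 CACGTG, which reads alike on both strands, starting 126 bases before the start. It also held 1 TGACTCA on the minus strand at 54. Both matches lie before the RefSeq start but inside the GENCODE gene of Met. CACGTG was found in 6.02% and TGACTCA in 4.46% of all windows. The Kit window held none of these letters, nor did those of Kitl and Ednrb, and no entry was matched for Erbb3. The Kitl window also runs into its GENCODE gene, and the Ednrb window lies wholly within its own. The searched letters did not overlap each other. GC content was 70.8% for Kit, 74.0% for Met and 54.4% for Mc1r, against a median of 52.4% over all windows. A match describes the letters and not binding.

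Some facts of the libraries bear on every value below. Recovered totals ran from 46.9 to 56.1 M counts in knockout back, from 44.7 to 63.8 M in knockout tail and from 64.9 to 66.3 M in control tail. Among the knockout back libraries 4628 genes were at 0 counts in the first, 6127 in the second and 1471 in the last, against 854 to 1739 in the tail libraries. A shift that separated the third library of each knockout group from the other 7 (median absolute size 0.45 in log2 units over all genes) had been taken out of the deposited values with no allowance for group. Log2 differences below come from a fit with that library set as a term, which gives the same estimate with the shift in or out, whereas the normalised counts contain the shift. A difference of 1 on the deposited scale is nearly a doubling for highly expressed genes, and understates the fold of low genes. Spry1 had normalised counts of 2283, 0 and 746 in knockout back, 3590, 1758 and 587 in knockout tail and 1510, 1074 and 1285 in control tail. Its groups overlapped, and the labels do not say where in the gene the floxed part lies. The Y-linked gene Eif2s3y had 3527, 2974 and 3843 normalised counts in knockout back, 3948, 4793 and 0 in knockout tail and 121, 0 and 7.29 in control tail. Xist, which is transcribed from the inactive X chromosome of females, had 1414, 1481 and 2645 in knockout back, 4.04, 16.0 and 7358 in knockout tail and 4223, 1416 and 3973 in control tail. All 3 knockout back libraries thus held transcripts of both genes, and the makeup by sex differed between the groups in every comparison. In knockout back against control tail it cannot be told apart from group. The same holds for knockout tail against control tail among the 7 libraries outside the third knockout pair, which include every control. Within knockout tail it cannot be told apart from library set. Its part in the differences was not tested in any comparison.

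Melanocyte markers were abundant in all 9 libraries. All 11 listed markers were in the table. The summed normalised count of the 8 whose counts could be recovered ran from 876541 to 989944 in knockout back, 779142 to 906748 in knockout tail and 669881 to 672325 in control tail. Sox10, a transcription factor of the melanocyte lineage, lay at 22344 to 28705, 24478 to 28237 and 17276 to 22648 in the same order of groups. Mitf, the main regulator of the lineage, lay at 14654 to 17630, 8282 to 12567 and 7800 to 10400. The summed level of those 8 was lowest in control tail, without overlap, which moves with the higher Kit, Ednrb and Met counts described below, and its part in them was not tested. Single markers did not all move with the sum. Mlana had 633897, 597628 and 353409 normalised counts in knockout back and 266368 to 321553 in control tail. Tyr had 132569, 136997 and 260687 in knockout back and 152097 to 231246 in control tail. Pmel, Tyrp1 and Dct, outside the sum, had deposited means of 19.99, 20.01 and 20.465 in knockout back and 20.20, 19.76 and 20.14 in control tail. On that scale Mlana was at 18.87 and 17.90 and Tyr at 17.52 and 17.93 in the same groups. The sum thus leaves out markers more abundant than these, and is not the total of melanocyte markers. In such bulk samples a smaller share of a cell type and less RNA per cell cannot be told apart.

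**Figure D1:**
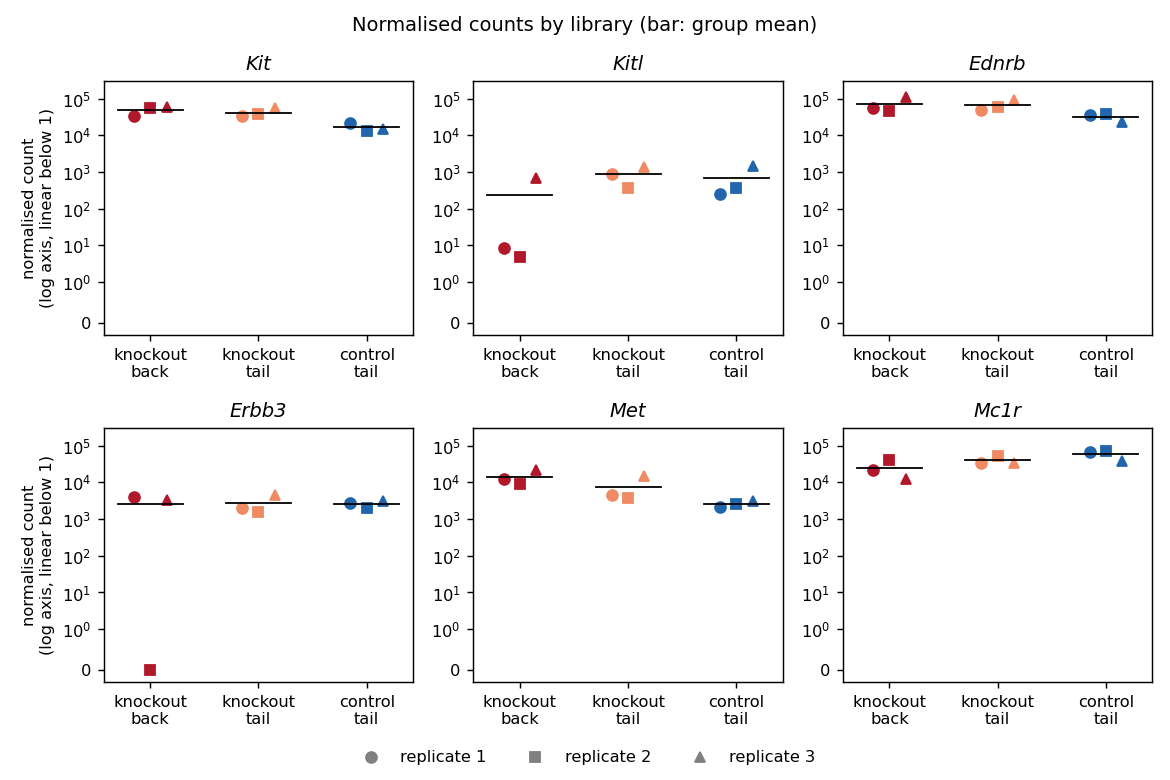
Normalised counts of the 6 genes in each library, on a log axis that is linear below 1, with groups from left to right knockout back, knockout tail and control tail; points are libraries and bars are group means. For Kit, Ednrb and Met every knockout library lies above every control library, Kitl is at 8.61 and 4.68 in the first and second knockout back libraries, and Erbb3 is at 0 in the second.

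Per kb of exon, Mc1r, Ednrb and Kit were the most abundant of the 6 transcripts in every group. The mean normalised count per kb of Mc1r was 6777 in knockout back, 11036 in knockout tail and 16187 in control tail. That of Ednrb was 16566, 15345 and 7505, and that of Kit 5529, 4630 and 1870 in the same order. Met followed with 1876, 987 and 344, Erbb3 with 415, 441 and 434 and Kitl with 39.3, 145 and 119. The order of the means therefore differed between groups. Ednrb stood above Mc1r in both knockout groups and Mc1r above Ednrb in control tail. Met stood above Erbb3 in both knockout groups and Erbb3 above Met in control tail. In control tail the ranges of Mc1r (10503 to 19630 per kb) and Ednrb (5242 to 8801) did not overlap, while in knockout tail (9108 to 14783 for Mc1r and 11138 to 21263 for Ednrb) and knockout back (3458 to 10894 and 10524 to 25998) they did. Kit overlapped Mc1r in knockout back, with 3812 to 6445 per kb, but not in knockout tail (3650 to 6087) or control tail (1439 to 2482). Erbb3 (324 to 517 per kb) and Met (285 to 416) overlapped in control tail, and so did they in knockout tail (255 to 742 and 478 to 1911), while in knockout back Met (1186 to 2858) lay above Erbb3 (0 to 682). Among 15043 genes with a known exon length, Ednrb lay above 98.9% in knockout back, 98.9% in knockout tail and 96.5% in control tail, and Kitl above 25.4%, 44.3% and 43.5%.

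Kit (chromosome 5, 75574916 to 75656722, plus strand, GRCm38, protein coding, ENSMUSG00000005672.12) had normalised counts of 33965, 56421 and 57428 in knockout back, 32525, 37004 and 54245 in knockout tail and 22118, 12819 and 15066 in control tail. Both knockout groups lay wholly above the control group and overlapped each other. The mean was 49271 ± 13265 in knockout back, 41258 ± 11468 in knockout tail and 16668 ± 4852 in control tail (SD, n = 3 each). Relative to control tail these means are 2.96-fold and 2.48-fold. Both folds contain the set shift of the third knockout libraries, as control tail has no library in the smaller set. In knockout back against control tail Kit rose by 1.36 ± 0.27 on the log2 scale (SE; limma adjusted p = 0.045 over all genes). In knockout tail against control tail the difference was 1.11 ± 0.27, with a 95% interval of 0.49 to 1.74, and did not pass (limma adjusted p = 0.33). Between knockout back and knockout tail it was 0.25, with an interval of -0.34 to 0.84 and an adjusted p of 0.65. Within the larger library set, taken alone, the differences were 1.07 for knockout tail against control tail and 1.40 for knockout back against control tail. The call in knockout back against control tail is close to the threshold. It was lost without the first and second knockout back libraries (limma adjusted p = 0.44), without the term for the library set (0.059), without trend or robust moderation (0.059) and in limma-voom on recovered counts (0.051). It was also lost in each of the 7 fits that left out 1 library other than the third knockout tail or the third knockout back library, in which the adjusted p ran up to 0.14.

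Kitl (chromosome 10, 100015630 to 100100416, plus strand), the gene of the KIT ligand, was the lowest of the 6. Its normalised counts were 8.61, 4.68 and 683 in knockout back, 853, 365 and 1361 in knockout tail and 252, 377 and 1487 in control tail. The first and second knockout back libraries, which are the ones with the most genes at 0, hold 8 and 4 recovered counts, and the third lies within the range of both other groups. On the deposited scale, from which the set shift was removed with no allowance for group, the third also lay below both groups. The log2 difference was -1.42 ± 0.53 (SE) for knockout back against knockout tail and -1.59 ± 0.56 for knockout back against control tail, and neither passed (limma adjusted p = 0.21 and 0.14). In the third pair, from the smaller set, knockout back minus knockout tail was -0.69. For knockout tail against control tail the difference was -0.18, with an interval of -1.47 to 1.12.

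Ednrb (chromosome 14, 103814625 to 103844402, minus strand), the endothelin receptor, had normalised counts of 56209, 44895 and 110905 in knockout back, 47515, 58165 and 90708 in knockout tail and 36143, 37543 and 22361 in control tail. Each knockout library exceeded each control library. The log2 difference was 0.74 ± 0.24 (SE) for knockout back against control tail and 0.68 ± 0.24 for knockout tail against control tail, and neither passed (limma adjusted p = 0.12 and 0.66). Knockout back against knockout tail gave 0.05, with an interval of -0.47 to 0.58. On the deposited scale, with that shift removed, the ranges of knockout tail and control tail overlapped.

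Erbb3 (chromosome 10, 128567523 to 128589652, minus strand), the neuregulin receptor, had 4103, 0 and 3387 normalised counts in knockout back, 1968, 1532 and 4464 in knockout tail and 2770, 1951 and 3111 in control tail. The 0 belongs to the library with 6127 genes at 0. The groups overlapped in every comparison. Log2 differences were -1.39 ± 0.98 (SE) for knockout back against control tail, -0.81 ± 0.92 for knockout back against knockout tail and -0.58 ± 0.98 for knockout tail against control tail. Their intervals all spanned 0. Without the second knockout back library the first of these was 0.19 and the second 0.45, so that single library sets their sign.

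Met (chromosome 6, 17463800 to 17573980, plus strand), the hepatocyte growth factor receptor, showed the highest fold of the 6 in knockout back against control tail. Normalised counts were 12173, 9107 and 21946 in knockout back, 4399, 3674 and 14674 in knockout tail and 2185, 2544 and 3194 in control tail. Every knockout library lay above every control library, and within each library set the knockout back values lay above the knockout tail ones. The mean was 14408 ± 6705 in knockout back, 7583 ± 6152 in knockout tail and 2641 ± 512 in control tail (SD, n = 3 each). The knockout back mean is 5.46-fold that of control tail. This fold contains the set shift of the third library, as control tail has no library in the smaller set. In knockout back against control tail Met rose by 1.71 ± 0.26 on the log2 scale (SE; limma adjusted p = 0.025), and by 1.54 without the set term (adjusted p = 0.046). Within the larger set, taken alone, that difference was 1.83. Knockout back against knockout tail gave 1.05 ± 0.24, which did not pass (limma adjusted p = 0.098), with 1.29 within the larger set and 0.56 within the smaller. Knockout tail against control tail gave 0.66 ± 0.26 (adjusted p = 0.78). The call against control tail was lost in 6 of the 9 fits that left out 1 library, namely without any 1 of the control tail libraries, the first or second knockout tail or the first knockout back library, with adjusted p up to 0.0997. Without the first and second knockout back libraries, which leaves 1 back library, the difference was 1.11 (adjusted p = 0.38).

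Met is also made by keratinocytes, so its values are set beside theirs. All 8 basal keratinocyte markers were in the table, and their summed normalised count was 127799, 49684 and 196162 in the knockout back libraries, 40395, 16721 and 334613 in knockout tail and 69936, 104078 and 44403 in control tail. Of the tail knockout libraries the third was highest both in Met and in these markers. The sum of the 8 differentiated keratinocyte markers was 37887, 212488 and 58160 in knockout back, 14030, 17227 and 154661 in knockout tail and 41277, 111701 and 27345 in control tail. The second knockout back library thus had a basal sum within the control range and the highest differentiated sum of the 9 libraries. None of these 16 markers was at 0 throughout a group. Their part in the Met values was not tested.

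Mc1r (chromosome 8, 123407107 to 123410744, plus strand), the melanocortin receptor, had its highest mean in control tail. Normalised counts were 21755, 39632 and 12580 in knockout back, 33133, 53779 and 33530 in knockout tail and 67038, 71415 and 38210 in control tail. The second knockout back and the third control library overlap narrowly. The mean was 24656 ± 13757 in knockout back, 40147 ± 11807 in knockout tail and 58887 ± 18041 in control tail (SD, n = 3 each). Log2 differences were -1.08 ± 0.38 (SE) for knockout back against control tail, -0.80 ± 0.36 for knockout back against knockout tail and -0.28 ± 0.38 for knockout tail against control tail, and none passed (limma adjusted p = 0.14, 0.29 and 0.9996). The median gene had a difference of -0.26 in knockout back against control tail. On the scale of log2 of the normalised count plus 1 that median was -1.09, and Mc1r was at -1.10. The median is over genes of all levels. Per kb of exon, Mc1r lay above 96.7% of genes in knockout back and 98.7% in control tail. A median over genes of like level was not computed. On the deposited scale without the first and second knockout back libraries, which leaves 1 back library, the median was -0.03 and Mc1r was at -1.80. The annotation places Gm20388, a gene that runs on the same strand, over Mc1r, so reads could be shared between them, and Gm20388 was not analysed here.

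**Figure D2:**
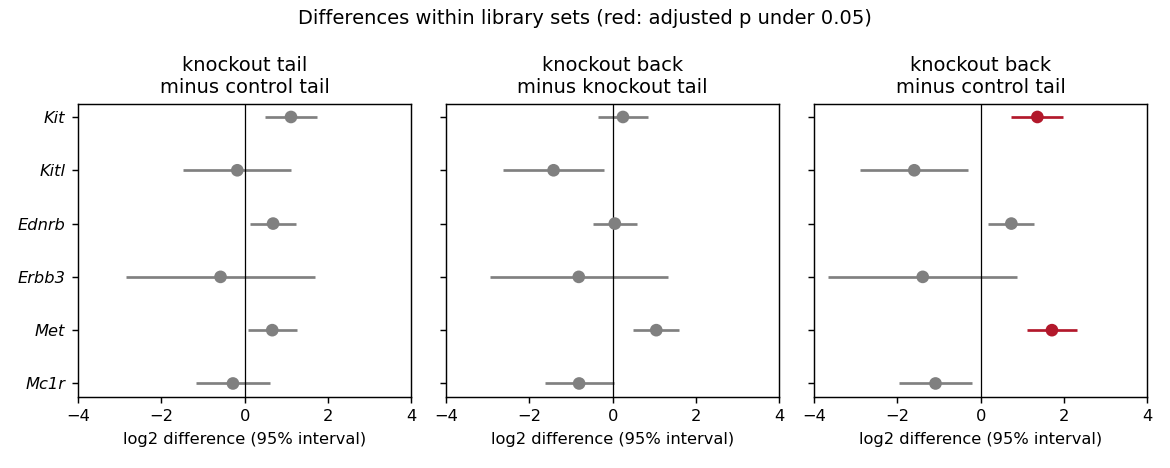
Log2 differences of the 6 genes in each comparison from limma with group and library set, with 95% intervals; red marks an adjusted p under 0.05. Only Kit (1.36) and Met (1.71) in knockout back minus control tail are red, and Erbb3 has the widest intervals.

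Counted over the 6 genes, 2 passed in knockout back against control tail, both higher, where 3.34% of all 16299 genes passed in either direction and 1.05% as higher. In knockout back against knockout tail 0 of 6 passed by limma, against 0.436% of all genes, and in knockout tail against control tail 0 of 6, against 0.0614%. With limma-voom on recovered counts 1 of 6 passed in knockout back against control tail, 0 in knockout back against knockout tail and 0 in knockout tail against control tail, against 2.61%, 1.25% and 0% of 16293 genes. At an unadjusted p under 0.05 the numbers were 5, 2 and 3 of 6, against 24.6%, 18.2% and 5.7% of all genes. Normalised counts of knockout back lay wholly above control tail in 3 of 6 genes, as they did in 7.41% of all genes, and those of knockout tail in 3 of 6, as in 9.69% of all genes. They lay wholly below in 0 of 6, against 15.6% and 9.31% of all genes. Between knockout back and knockout tail the normalised counts of all 6 overlapped, where those of knockout back lay wholly above in 4.55% and wholly below in 10.4% of all genes. On the deposited scale, with the shift removed, Met lay wholly above and Kitl wholly below between these groups. The share of all genes on that scale was not computed. The 2 comparisons with control tail share its libraries. No exact permutation test over 3 against 3 libraries can go below 0.1 two-sided, which was the value for Kit and Met in both comparisons with control tail.

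Partners of each receptor were read from lists chosen with earlier results of these data known. Counts of list genes that passed stand beside the shares of all genes. These were 3.34% in knockout back against control tail, 0.436% in knockout back against knockout tail and 0.0614% in knockout tail against control tail. Beside Kit, 0 of the other 22 genes of its list, all of them measured, passed in any comparison. The list median was 0.20 for knockout back against control tail, with 15 of 23 positive, while the median of all genes was -0.26 and 33.9% were positive. Src, a kinase that couples KIT to downstream signalling, had normalised counts of 48.5, 0 and 1194 in knockout back, 2413, 2681 and 1494 in knockout tail and 2524, 1810 and 2086 in control tail. Its difference was -2.55 ± 0.66 (SE) for knockout back against control tail and -2.26 ± 0.62 against knockout tail, neither past the threshold (limma adjusted p = 0.072 and 0.13). Gab1, an adaptor used by both KIT and MET, had 1195, 765 and 11031 in knockout back, 1073, 660 and 1272 in knockout tail and 463, 125 and 276 in control tail, and differed by 1.505 ± 0.61 between knockout back and control tail (adjusted p = 0.18). Pik3ca, a catalytic subunit of phosphoinositide 3-kinase, differed by 1.18 between knockout back and knockout tail (adjusted p = 0.34). In knockout tail against control tail the largest differences were 0.90 for Sos1, an exchange factor for RAS, and -0.94 for the adaptor gene Grb7 (adjusted p = 0.99 and 0.95).

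Of the endothelin list 9 of 14 genes were measured and 0 passed in any comparison by limma. Edn1, an endothelin ligand, was near the floor, with 0, 353 and 35.3 normalised counts in knockout back, 0, 0 and 62.4 in knockout tail and 28.4, 22.3 and 113 in control tail. The ligand gene Edn3 and the receptor gene Ednra were not analysed here. Gnaq, the G-protein subunit through which endothelin receptors activate phospholipase C, had 1668, 0 and 1437 normalised counts in knockout back, 1613, 1862 and 2435 in knockout tail and 1337, 789 and 934 in control tail. The first and the third knockout back library lay above every control, and the 0 is in the library with 6127 genes at 0. Gnaq differed by -0.83 in knockout back against control tail, -1.26 in knockout back against knockout tail and 0.43 in knockout tail against control tail. Plcb3, one such phospholipase, had 1469, 7.02 and 1181 in knockout back, 1310, 1311 and 2320 in knockout tail and 1046, 962 and 479 in control tail, with its low value in that same library. It differed by -1.07 in knockout back against knockout tail and 0.43 in knockout tail against control tail. Prkca, a protein kinase C, differed by 0.82 in knockout back against control tail. Adjusted p in these comparisons were 0.39 or more.

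Of the neuregulin and ERBB list 13 of 17 were measured, and 1 passed, in knockout back against control tail, where 3.34% of all genes did. Errfi1, an inhibitor of EGF receptor family kinases, had normalised counts of 6210, 4164 and 9951 in knockout back, 1470, 2495 and 4329 in knockout tail and 1512, 1292 and 1282 in control tail. It rose by 1.59 ± 0.29 (SE) in knockout back against control tail (limma adjusted p = 0.038), and was at 1.18 against knockout tail (adjusted p = 0.099) and 0.41 in knockout tail against control tail (adjusted p = 0.9996). Erbb2, the partner of ERBB3, had 0, 3115 and 1260 in knockout back, 485, 341 and 1290 in knockout tail and 656, 461 and 70.4 in control tail. Nrg1, which encodes a neuregulin ligand of ERBB3, was at 4.31, 0 and 236, then 0, 0 and 699, then 0, 78.6 and 0 in the same order. Egfr, a receptor of the family that keratinocytes also make, had 3687, 2200 and 650 in knockout back, 0, 0 and 837 in knockout tail and 3.15, 279 and 307 in control tail, and did not pass in knockout back against knockout tail (2.41, adjusted p = 0.18) or control tail (2.02, adjusted p = 0.20). Nrg4 differed by 0.59 in knockout tail against control tail (adjusted p = 0.9996).

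The MET list had 10 of 13 genes measured. Met itself was the 1 that passed, in knockout back against control tail, where 3.34% of all genes did. In knockout back against control tail 9 of 10, Met among them, were positive, as were 33.9% of all genes. The list median was 1.25, beside -0.26 over all genes. Without the first and second knockout back libraries the median over all genes was -0.03, and that of the list was not computed. Cd44, a co-receptor of MET, had 33646, 22003 and 49990 normalised counts in knockout back, 23696, 23893 and 39044 in knockout tail and 15663, 10067 and 15222 in control tail, and differed by 1.02 ± 0.24 between knockout back and control tail (SE; limma adjusted p = 0.058). In knockout tail against control tail it differed by 0.78 (adjusted p = 0.55). Spint2, an inhibitor of the protease that activates hepatocyte growth factor, had 3928, 9661 and 3165 in knockout back, 391, 413 and 1982 in knockout tail and 732, 1552 and 835 in control tail. Knockout back differed by 1.79 from control tail (adjusted p = 0.13) and by 2.20 from knockout tail (adjusted p = 0.12). Spint1, a related inhibitor, differed by 1.75 between knockout back and knockout tail (adjusted p = 0.27), and Plxnb1, a semaphorin receptor that can associate with MET, by 1.48 between knockout back and control tail (adjusted p = 0.24). Ranbp9 differed by 0.68 in knockout tail against control tail (adjusted p = 0.9996). Mst1r, the receptor most like MET, had 0, 4.68 and 117 in knockout back, 143, 0 and 186 in knockout tail and 3.15, 0 and 0 in control tail. Hgf, the ligand, was not analysed here. Keratinocytes make several genes of this list, and the keratinocyte values given above apply here too.

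Of the melanocortin list 20 of 23 were measured, and 1 passed, in knockout back against control tail, where 3.34% of all genes did. Pde4b, a phosphodiesterase that breaks down cyclic AMP, had normalised counts of 3605, 3642 and 5109 in knockout back, 3679, 4217 and 3747 in knockout tail and 1368, 931 and 1381 in control tail. All 6 knockout libraries lay above all controls. Pde4b rose by 1.38 ± 0.28 (SE) in knockout back against control tail (limma adjusted p = 0.047), and differed by 1.32 ± 0.28 in knockout tail against control tail without passing (adjusted p = 0.26). Pomc, the precursor of the melanocortins, had 0, 0 and 46.1 in knockout back, 97.7, 248 and 12.7 in knockout tail and 304, 64.5 and 147 in control tail (adjusted p = 0.20 for knockout back against control tail). Mgrn1, a ubiquitin ligase that dampens MC1R signalling, had 4022, 2266 and 10149, then 5180, 3977 and 9182, then 4269, 4100 and 4694 in the same order of groups. Adcy7, an adenylyl cyclase, had 4244, 5.85 and 3638 in knockout back, 4090, 4150 and 3327 in knockout tail and 7993, 7068 and 5419 in control tail, with the low value again in the second knockout back library. It differed by -2.27 in knockout back against control tail, -1.27 in knockout back against knockout tail and -0.998 in knockout tail against control tail, with adjusted p of 0.21, 0.51 and 0.9996, and Creb1, a transcription factor activated by cyclic AMP, by 0.84 in knockout back against knockout tail (adjusted p = 0.30). Asip, the antagonist of MC1R, was not analysed here.

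Further receptors and the core of the cascade to ERK held no gene that passed by limma in any comparison, among 19 of 29 and 19 of 19 measured. Medians in knockout back against control tail were 0.07 and -0.16, beside -0.26 over all genes. Tyro3, a receptor tyrosine kinase of the TAM family, differed by -1.57 ± 0.43 (SE) in knockout back against control tail (limma adjusted p = 0.081) and Epha2, an ephrin receptor, by 1.25 (adjusted p = 0.43). Ephb4, another ephrin receptor, differed by -1.36 and Insr, the insulin receptor, by 1.01 in knockout back against knockout tail (adjusted p = 0.11 and 0.52). Fgfr2, a fibroblast growth factor receptor, differed by -1.31 and Axl, a further TAM receptor, by 0.94 in knockout tail against control tail (adjusted p = 0.41 and 0.9996). Mapk3, which encodes ERK1, differed by -1.34 in knockout back against control tail (adjusted p = 0.068). Sos2, an exchange factor for RAS, differed by -1.22 in knockout back against knockout tail (adjusted p = 0.25). Rps6ka3, a kinase downstream of ERK, differed by -1.16 in knockout tail against control tail (adjusted p = 0.9996).

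**Figure D3:**
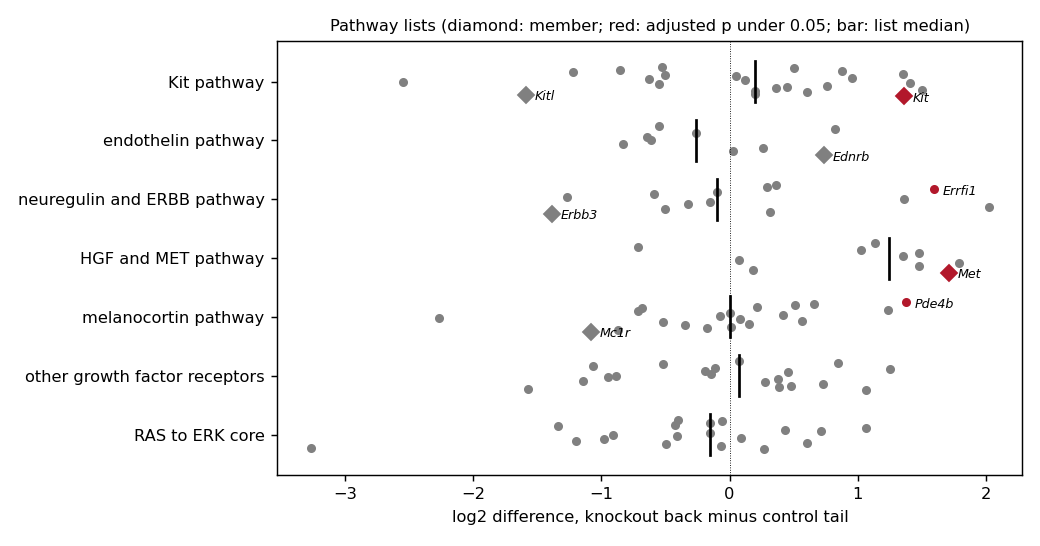
Log2 differences of knockout back minus control tail for the measured genes of each list, from limma with group and library set; diamonds are the 6 genes described above, red marks an adjusted p under 0.05 and bars are list medians. Kit, Met, Errfi1 and Pde4b are red, and the MET list has a median of 1.25 where the other lists lie between -0.26 and 0.20.

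Other cells that use these receptors were looked for by their markers. Of 10 mast cell markers, cells that depend on KIT, 0 had a row in the table, so no mast cell value stands beside Kit. Of 8 Schwann cell markers, a lineage that uses ERBB3 and EDNRB, 6 were in the table, with summed normalised counts of 27011 to 76648 in knockout back, 11019 to 17267 in knockout tail and 8766 to 15993 in control tail. Of these, Gfra3 was at 0 in all knockout tail libraries. Of 7 fibroblast markers 5 were in the table, with sums of 3958 to 10850, 2534 to 4395 and 1417 to 2781 in the same order of groups. Of 8 endothelial and pericyte markers 2 were in the table, with sums of 445 to 2585, 2054 to 2651 and 3391 to 4302. Langerhans and myeloid markers (5 of 9 in the table) summed to 2012 to 15362, 735 to 7468 and 846 to 2432, and Merkel cell markers (2 of 6) to 480 to 5788, 0 to 945 and 0 to 166. T cell markers (3 of 7) summed to 20.5 to 623, 0 to 326 and 3.31 to 12.6, and blood and muscle markers (2 of 7) to 6.46 to 255, 18.5 to 1309 and 3.15 to 431. Endothelial cells and fibroblasts make Kitl, and the part of any of these cells in the values of the 6 genes was not tested.

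**Figure D4:**
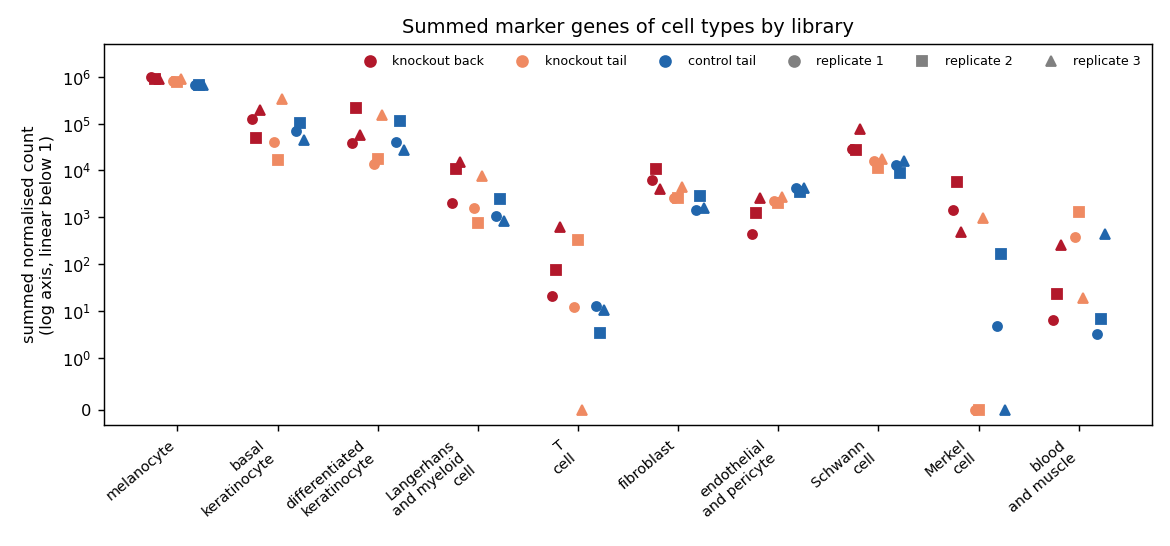
Summed normalised counts of the cell type markers in each library, on a log axis that is linear below 1; colours are groups in the order knockout back, knockout tail and control tail, and shapes are replicates. Melanocyte markers have the highest sums in every library, and basal keratinocyte markers are highest in the third knockout tail library at 334613.

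Genes with the most similar profile over the 9 libraries were sought among 12884 genes with a mean normalised count of at least 100, by Pearson's r of the deposited values, as a description without a test. The profile of Kit was closest to those of Cdh1, which encodes E-cadherin (r = 0.99), Ncald (r = 0.98) and Tox4 (r = 0.97). Met was closest to Zfp27 (r = 0.996), Ppp1r10 (r = 0.99) and Hpse (r = 0.98). Ednrb was closest to Atp5g3 (r = 0.96), Rbbp4 and Nedd4 (r = 0.95 each), and Mc1r to Fam210b (r = 0.96), S100a6 and Rtraf (r = 0.94 each). Kitl was closest to Tsc22d4 and Wdr89 (r = 0.98 each) and Hhipl1 (r = 0.97), and Erbb3 to Mindy2 (r = 0.996), Tpm3 and Tusc1 (r = 0.99 each). All of these profiles share the groups, the 2 sparse back libraries and the removed shift.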

How the data were processed

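RNA of sorted melanocytes had been made into SMART-Seq v4 libraries and sequenced paired-end, per the labels' protocols. The deposited table holds log2 values of 16299 genes in 9 libraries; DESeq2 and GRCm38 are named in the submitters' processing notes, and the aligner, the counter and the strand setting were not given in the sources used here. These values follow a variance-stabilising curve with 0 counts at 7.98. Averaged over the third library of each knockout group, each gene equalled its average over the other 7 within 7.14e-09, so a shift between these sets had been removed. Undoing both steps gave whole counts, within 0.004, for 16293 genes. Normalised counts are these divided by size factors. The main test was limma 3.58.1 (R 4.3.3) on the deposited values, moderated with a trend and robustly, with group and library set as terms and Benjamini-Hochberg adjustment over all genes at 0.05. The procedure was tested on simulated data with the same dispersion in every gene and no sparse libraries. That simulation cannot speak of calls that rest on the first and second knockout back libraries. Same-numbered libraries were not paired in the main fit. Of 9 correlations of their deviations 0 exceeded 0.1. For the third knockout pair the correlation cannot tell, because the removal of the set shift bears on it. Symbols were matched to GENCODE M21, and exon lengths were found for 15049 genes. Genes were named by rule: the 6 members, listed ligands and partners, list genes past the threshold, the 2 largest differences per list and comparison with a mean normalised count of at least 100, and the 3 closest profiles; some results under this rule are not reported here. Members and lists were chosen with earlier results of these data known. Alternatives were a fit without the set term, limma-voom on recovered counts, log2 of the normalised count plus 1, a filter at a mean of 10, plain moderation, a replicate block and left-out libraries. No counting intervals are given, since the comparisons rest on the spread between libraries.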

Additional observations from a re-analysis of the deposited data

How the results depend on the processing

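The differences of the 6 genes in 3 comparisons were recomputed under 7 other settings and in 9 fits that each left out 1 library. Of 126 differences under the other settings 117 kept their direction and side of the threshold, 7 lost the call and 2 changed sign. Kit in knockout back against control tail was 1.19 without the set term, 1.36 with limma-voom, 1.36 without trend or robust moderation, 1.31 with the replicate number as a block (limma adjusted p = 0.22) and 1.15 without the first and second knockout back libraries, and passed in none of these. Met in that comparison lost its call with the block (1.84) and without those back libraries (1.11). Kitl in knockout tail against control tail was 0.30 with the block and 0.0055 without those back libraries, in place of -0.18. The calls among the 6 genes in knockout back against control tail numbered 1 without the set term, 1 with limma-voom, 1 without trend or robust moderation, 0 with the block and 0 without the sparse back libraries, in place of 2. Leaving out 1 library gave 0 to 2 such calls there and 0 to 1 in knockout back against knockout tail, where Met passed at 1.29 without the third library of either group. Ranges over these fits were 1.07 to 1.59 for Kit and 1.48 to 1.84 for Met in knockout back against control tail, 0.86 to 1.29 for Met in knockout back against knockout tail, -0.57 to 0.30 for Kitl and -0.56 to 0.070 for Mc1r in knockout tail against control tail, -0.065 to 0.18 for Ednrb and -1.94 to 0.45 for Erbb3 in knockout back against knockout tail, and -2.80 to 0.19 for Erbb3 in knockout back against control tail. Calls over all genes in knockout tail against control tail numbered 10, against 0 without the set term, with the block, with limma-voom, with log2 of the normalised count plus 1, without trend or robust moderation and without the sparse back libraries, and 0 to 8 with 1 library left out. In knockout back against knockout tail they numbered 71, against 244 without the set term, 3 with the block, 203 with limma-voom, 189 with log2 of the count plus 1, 133 without trend or robust moderation, 1 without the sparse back libraries and 2 to 1642 with 1 library left out. In knockout back against control tail they numbered 545, against 163 without the set term, 426 with limma-voom, 5 with the block, 8 without the sparse back libraries and 26 to 2385 with 1 library left out. The highest numbers came without the third knockout tail or the third knockout back library, where the set term takes up the other one, and the cause was not tested. Same-numbered libraries share a number, and the third knockout pair also shares the smaller library set. Correlations ran from -0.70, in that pair, to 0.08, and the removal of the set shift bears on the value of that pair. The median gene in knockout back against control tail was at -0.26, or -0.96 with limma-voom and -1.09 with log2 of the count plus 1.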

Other observations

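The ratio of Mc1r to Ednrb, per kb of exon within each library, was looked at after the values were seen; being taken within a library, it needs no scaling between libraries. It was 0.45, 1.04 and 0.13 in knockout back, 0.82, 1.08 and 0.43 in knockout tail and 2.17, 2.23 and 2.00 in control tail. All 6 knockout libraries lay below all 3 control libraries, and the exact two-sided permutation p was 0.1, the smallest possible, for each knockout group against control tail, and 0.5 for knockout back against knockout tail. The ratio of Met to Erbb3 was 2.32 and 5.08 in the first and the third knockout back library, with no value in the second, where Erbb3 is at 0. It was 1.75, 1.88 and 2.58 in knockout tail and 0.62, 1.02 and 0.80 in control tail. The set shift is contained in the third knockout values. A ratio shows unequal levels of a pair of genes, not which of them differed.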
